A study of Mus musculus with 2 samples.

Results

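The minichromosome maintenance (Mcm) family was described here through its 9 named genes, Mcm2 to Mcm10, out of 18919 genes in the deposited table. The genes were taken by symbol, and the family was selected with the FPKM ratios of these same libraries known, that of Mcm2 first, so the differences between the libraries are a description of the members and carry no test. FPKM, the number of fragments scaled for transcript length and library size, allows genes to be compared per length. All 9 genes were above 1 FPKM in both libraries, the threshold at which a gene was counted as measured in at least 1 library, and 13253 genes met it in all.

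The study sequenced intestinal RNA of C57BL/6 mice at 2 months of age. Control animals carried APCmin, a truncating allele of the tumour suppressor Apc that leads to intestinal adenomas. Knockout animals carried APCmin together with Setd2IEC-/-, the loss of Setd2, a histone H3 lysine methyltransferase, from intestinal epithelial cells. The knockout pool therefore kept Setd2 in its other cell types, and both genotypes shared the Apc mutation. Each genotype was 1 library of RNA mixed from 3 littermates, so no difference below has a replicate check, and the spread between mice is unknown. The labels do not name the Cre driver. Setd2 itself had 6.87 FPKM in control and 3.47 in knockout RNA, a count ratio of 0.504 (0.432 to 0.587).

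Mcm2 to Mcm7 form a ring-shaped hexamer, the motor of the replicative helicase. Origin recognition complex, Cdc6 and Cdt1 load the ring onto DNA as an inactive double hexamer before S phase, and Cdc45 and the GINS complex turn it into the active helicase. Mcm2 also carries a histone-binding tail that hands parental H3-H4 to the new strands. Mcm10 assists activation of the loaded ring, whereas Mcm8 and Mcm9 form a separate complex that acts in homologous recombination. In the intestine these genes mark the dividing cells of the crypts, and E2F factors are known activators of hexamer genes.

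Promoter sequence is shown for the hexamer subunits first, because the subunits are transcribed from separate loci and differed in how far their transcripts were apart between the libraries. RefSeq promoter windows (mouse build GRCm38.p6, the mm10 coordinates used by the authors) ran from 250 bases before the annotated start to 50 after it, and matched 8 of the 9 members. Mcm4 had no entry. The windows were searched on both strands for an E2F octamer, taken as TTTCCCGC, TTTGGCGC, TTTCGCGC or TTTGCCGC, and for the CCAAT box. Matches to the octamers can overlap each other on opposite strands. Below, 170 bases before and 30 after the start are printed 5′ to 3′ on the gene's strand, with E2F octamers in capitals. The stretches are chr6:88898751-88898950 (minus strand) for Mcm2, chr1:20820283-20820482 (minus) for Mcm3, chr8:75109339-75109538 (plus) for Mcm5, chr1:128359676-128359875 (minus) for Mcm6 and chr5:138171854-138172053 (minus) for the upstream one of the Mcm7 starts.
Mcm2: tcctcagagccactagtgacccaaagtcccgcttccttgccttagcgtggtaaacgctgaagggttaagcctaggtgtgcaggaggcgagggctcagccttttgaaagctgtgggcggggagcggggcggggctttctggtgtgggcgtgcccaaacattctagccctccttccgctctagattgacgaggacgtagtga
Mcm3: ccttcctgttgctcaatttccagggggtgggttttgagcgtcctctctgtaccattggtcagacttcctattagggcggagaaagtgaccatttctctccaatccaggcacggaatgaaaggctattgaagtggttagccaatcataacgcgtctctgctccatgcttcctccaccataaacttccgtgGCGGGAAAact
Mcm5: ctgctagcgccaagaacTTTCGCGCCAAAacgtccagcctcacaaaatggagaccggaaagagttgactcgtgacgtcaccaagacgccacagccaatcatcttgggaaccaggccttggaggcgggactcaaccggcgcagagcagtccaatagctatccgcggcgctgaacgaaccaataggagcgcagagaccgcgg
Mcm6: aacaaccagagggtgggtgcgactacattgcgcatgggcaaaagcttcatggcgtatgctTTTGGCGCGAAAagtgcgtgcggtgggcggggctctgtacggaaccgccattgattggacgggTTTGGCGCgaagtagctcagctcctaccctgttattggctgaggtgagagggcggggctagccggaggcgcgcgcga
Mcm7: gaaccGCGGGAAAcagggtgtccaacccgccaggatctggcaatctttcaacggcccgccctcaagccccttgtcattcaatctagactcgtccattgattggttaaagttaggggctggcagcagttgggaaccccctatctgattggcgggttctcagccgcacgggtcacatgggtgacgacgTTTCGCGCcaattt

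An E2F octamer was present in the windows of 5 of the 8 members, Mcm3, Mcm5, Mcm6, Mcm7 and Mcm8, against 2.26% of all 32851 windows of that length. Mcm6 held 3 matches, 2 of them overlapping, and Mcm5 held 2 that overlap each other. Mcm3 and the upstream Mcm7 window held 2 separate matches each, while the window of the other Mcm7 start held 0. The second Mcm3 match starts at base 39, beyond the printed stretch, and the single Mcm8 match starts at base 40. The Mcm2 window had none of these letters. In the first 150 bases of the annotated coding transcript of Mcm2, outside the window, TTTCGCGC occurs on both strands from bases 83 and 87 after the start. Transcript bases were searched for Mcm2 alone, so these matches have no counterpart for the other members and no share over all genes. The windows of Mcm9 and Mcm10 held no octamer either. A CCAAT box was found for all 8 members with a window, and in 37.4% of all windows. A match describes letters only and is no evidence that a factor binds there.

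**Figure D1:**
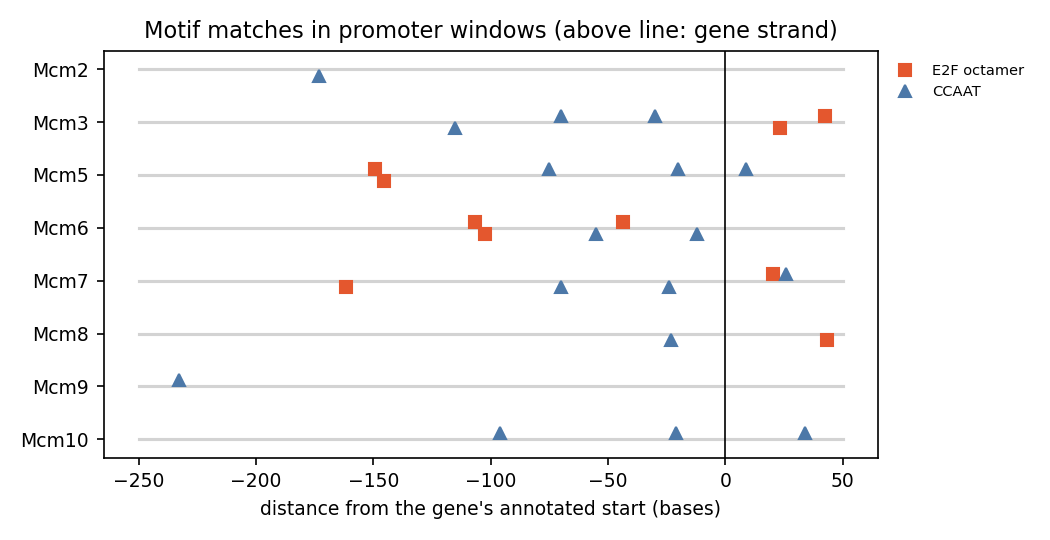
Positions of E2F octamers (squares) and CCAAT boxes (triangles) in the promoter window of each Mcm gene, as distance in bases from the annotated start; marks above a line are on the gene's strand, and the upstream window is shown for Mcm7. The Mcm2 line carries 1 CCAAT box and no octamer, whereas Mcm3, Mcm5, Mcm6, Mcm7 and Mcm8 carry at least 1 octamer.

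The libraries stood apart in their tissue make-up as well as in genotype. All 12 epithelial markers were measured, with summed levels of 8018 FPKM in control and 7977 in knockout RNA. Single markers went both ways. The 95% interval for counting error in the count ratio lay wholly above 1 for 7 of them and wholly below 1 for 3. Among all measured genes 28% had an interval wholly above 1. The lowest log2 ratio was that of Krt20, at 1522.47 and 1173.74 FPKM, and the highest that of Krt18, at 96.61 and 180.43. Exocrine pancreas markers (13 measured of 14 in the table, all 13 at least 2-fold higher in knockout RNA) summed to 44.24 and 1587 FPKM. Stomach markers (5 of 6 at least 2-fold higher: Gkn1, Gkn2, Muc6, Pgc and Tff1) summed to 2.31 and 40.74. Red cell markers (4 of 4 at least 2-fold higher, the globins Hbb-bs, Hbb-bt, Hba-a1 and Hba-a2) summed to 66.06 and 240. B cell markers (3 of 7 at least 2-fold lower, Ms4a1 and Fcer2a among them) summed to 45.54 and 24.3. Among lists that hold dividing cells, crypt base markers summed to 124.69 and 155.77, a summed count ratio of 1.32 (1.25 to 1.40). All 6 had a log2 ratio above 0, beside 62.5% of measured genes. For 4 of the 6 the interval lay wholly above 1. At least 2-fold higher was 1 of 6, the Wnt target Axin2 at 5.59 and 12.9. Germinal centre markers, from the dividing B cells of lymphoid follicles, summed to 26 and 22.85, with 0 of 5 past 2-fold. Absorptive enterocyte markers, from the non-dividing villus, summed to 27764 and 19991, with 0 of 8 past 2-fold. A log2 ratio above 0 was found for 1 of the 8, Alpi, and the median was -0.62, beside 0.08 for all measured genes. Plasma cell, T cell, myeloid, smooth muscle and fibroblast lists had 0 genes past 2-fold, and the endothelial list had 1 of 5, Cdh5. No marker in the table was at 0 in both libraries, while Gkn2, Muc5ac, Gif and Slc4a1 were at 0 in control RNA. In whole-tissue RNA, more dividing cells and more Mcm RNA per cell cannot be told apart, and the part of these cell types in the Mcm differences was not tested.

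Among the hexamer subunits, Mcm2 stood highest in its difference between the libraries. Mcm2 (gene identifier 17216, chr6:88883474-88898780) was at 7.03 FPKM in control RNA and 18.67 in knockout RNA. These values came from 211 and 550 expected counts, or 23.95 and 63.61 CPM, counts scaled to the library total. The count ratio was 2.66, with a 95% counting interval of 2.26 to 3.13. That interval, from exact Clopper-Pearson limits on the split of the counts between the libraries, covers counting error only. On the log2 scale with a pseudocount of 1 FPKM the ratio was 1.29, the 235th highest of the 13253 measured genes. The authors' files assign Mcm2 a single transcript of 3381 bases in both libraries, so that the FPKM ratio and the count ratio are the same 2.66.

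The subunits Mcm7 and Mcm4 came next, with ratios close to each other. Mcm7 (gene identifier 17220, chr5:138164583-138172111), a core subunit of the helicase motor, was at 13.5 FPKM in control RNA and 20.4 in knockout RNA, a count ratio of 1.51 (1.30 to 1.76). Its locus overlaps the start of Ap4m1 and holds the microRNA genes Mir25, Mir93 and Mir106b. Ap4m1 itself, a subunit of an adaptor complex, was at 5.12 and 5.08 FPKM. Whether counting used strand is not given in the sources used here, so reads from overlapping genes may not be told apart. Mcm4 (17217, chr16:15623897-15637400), another catalytic partner in the ring, was at 5.64 and 8.43 FPKM, with a count ratio of 1.49 (1.23 to 1.82). Both genes were higher in knockout RNA beyond counting error, and both stayed below 2-fold.

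Mcm5, Mcm6 and Mcm3 lay closer between the pools. Mcm5 (17218, chr8:75109468-75128439), which with Mcm2 forms the gate through which DNA enters the ring, was at 9.02 FPKM in control RNA and 12.42 in knockout RNA, a ratio of 1.37 (1.17 to 1.61). Mcm6 (17219, chr1:128331575-128359705) was the most abundant member per length in both libraries, at 21.09 and 24.97 FPKM, with a ratio of 1.18 (1.06 to 1.33). Mcm3 (17215, chr1:20802966-20820312) was at 9.46 and 9.88 FPKM, from 242 and 248 counts. Its ratio of 1.04 had an interval that includes 1 (0.871 to 1.25), so no difference was detectable at this depth, and its log2 ratio of 0.06 turned to -0.002 when the knockout library was divided by the median ratio of well-expressed genes and to -0.05 on the CPM scale with TMM factors.

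Outside the hexamer the members were expressed at lower levels, apart from Mcm10. Mcm10 (70024, chr2:4990724-5012791), the activation factor, was at 6.24 FPKM in control RNA and 8.83 in knockout RNA, a count ratio of 1.40 (1.16 to 1.68). Mcm9 (71567, chr10:53536315-53630006) was at 2.35 and 3.31 FPKM, from 81 and 112 counts, with a ratio of 1.41 (1.05 to 1.90). Asf1a, a histone chaperone gene inside the Mcm9 locus, was at 4.13 and 3.37 FPKM. Mcm8 (66634, chr2:132816137-132844197), the partner of Mcm9, was the rarest member at 1.48 and 1.34 FPKM, and its 44.5 and 40.8 expected counts gave a ratio of 0.934 (0.593 to 1.45). The length that the authors' files give for Mcm8 moved from 3397 to 3481 bases between the libraries, since it has more than 1 transcript.

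Of the 9 members, 1 was at least 2-fold higher in knockout RNA and 0 were at least 2-fold lower, where 2-fold means a log2 ratio of 1 or more, or -1 or less. By the same rule 2.78% of the measured genes were higher and 1.28% lower, 369 and 170 of 13253 genes, or 544 and 144 of 14706 on the CPM scale. A log2 ratio above 0 was found for 8 members and for 62.5% of measured genes, and a counting interval wholly above 1 for 7 members and for 28% of measured genes. The number of members above 0 was 7 with TMM factors and with median ratio scaling, where Mcm3 turned. The median log2 ratio of the members was 0.42, beside 0.08 for all measured genes. Since the members were selected on this contrast, nothing is read from these shares.

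**Figure D2:**
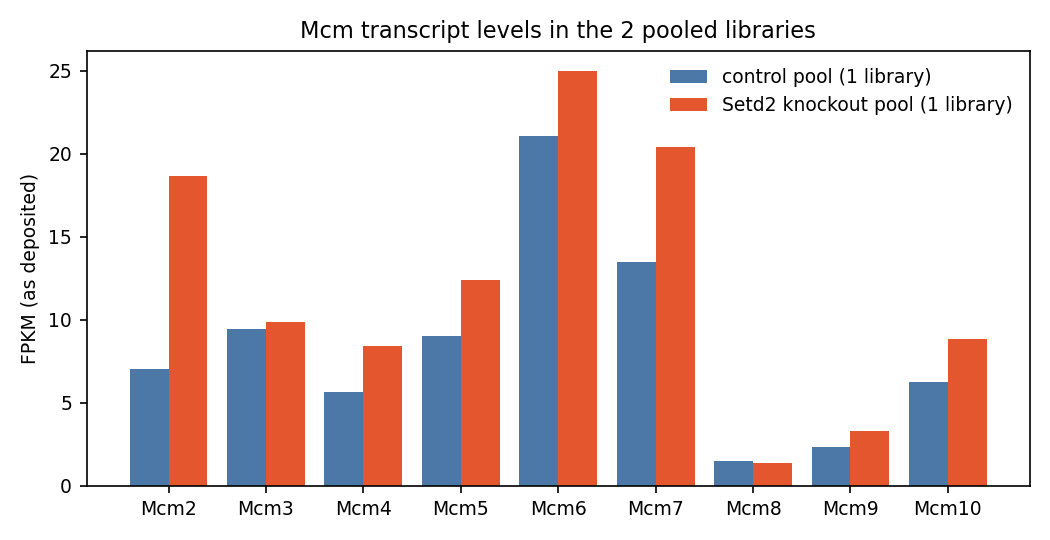
Deposited FPKM of each Mcm gene in the control library (blue) and the Setd2 knockout library (orange), 1 library each, so there are no error bars. Mcm2 is at 7.03 and 18.67, whereas Mcm3 is at 9.46 and 9.88 and Mcm8 at 1.48 and 1.34.

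**Figure D3:**
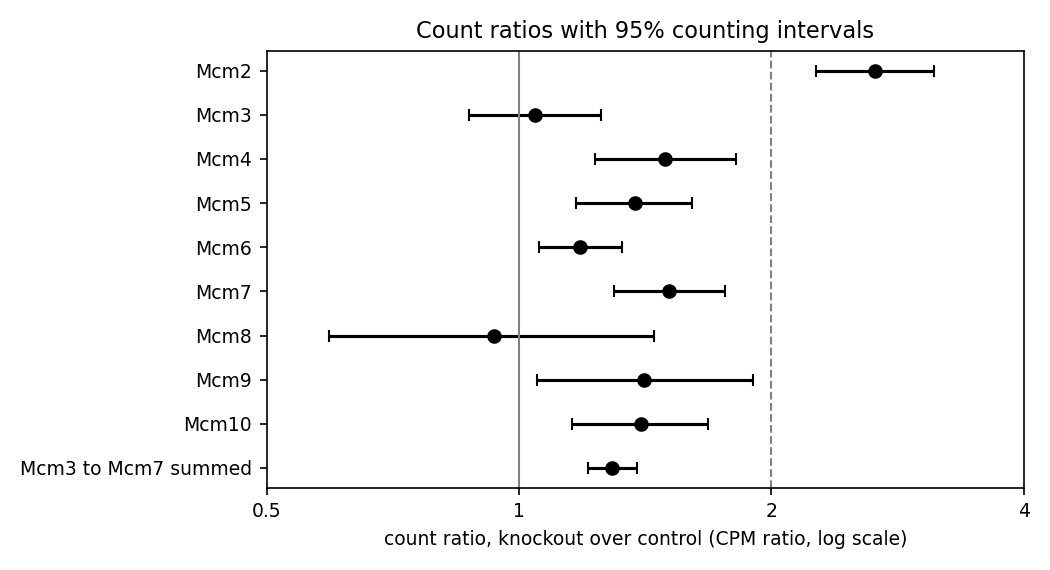
Count ratio of knockout over control for each Mcm gene and for Mcm3 to Mcm7 summed, each library scaled to its total, on a log axis with 95% counting intervals; the dashed line is at 2-fold. The Mcm2 interval of 2.26 to 3.13 lies to the right of all other intervals shown.

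The order of the members per length differed between the libraries in the places of Mcm2 and Mcm3, which were exchanged around Mcm5. In control RNA the order from high to low was Mcm6, Mcm7, Mcm3, Mcm5, Mcm2, Mcm10, Mcm4, Mcm9 and Mcm8. Mcm3 and Mcm5 did not differ beyond counting error there (ratio of FPKM 1.05, 0.878 to 1.25), nor did Mcm2 and Mcm10 (1.13, 0.922 to 1.37), nor Mcm10 and Mcm4 (1.11, 0.902 to 1.36). In knockout RNA Mcm2 followed Mcm7, from which it did not differ beyond counting error (Mcm7 over Mcm2 1.09, 0.960 to 1.24). It was 1.503-fold above Mcm5 there (1.32 to 1.72), while in control RNA Mcm5 was 1.28-fold above Mcm2 (1.07 to 1.54). Mcm5 was 1.26-fold above Mcm3 in knockout RNA (1.07 to 1.48). Mcm3, Mcm10 and Mcm4 formed a run in knockout RNA in which neighbours did not differ beyond counting error.

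Within the hexamer, Mcm2 took a larger share of the transcripts in knockout RNA. Its share of the summed Mcm2 to Mcm7 counts was 11.98% in the control library (exact Clopper-Pearson interval 10.5% to 13.6%) and 21.9% in the knockout library (20.3% to 23.5%). Per length, as a share of summed FPKM, it was 10.7% and 19.7%. Mcm6 took 32.2% of the control counts (30.001% to 34.4%) and 26.2% of the knockout counts (24.5% to 27.9%), and Mcm3 took 13.7% (12.2% to 15.4%) and 9.86% (8.72% to 11.1%). The shares of Mcm4, Mcm5 and Mcm7 had overlapping intervals in both libraries. The shares sum to the whole hexamer, so a larger Mcm2 share lowers the others. With Mcm2 left out, a setting added after the shares were seen, Mcm6 took 36.6% of the Mcm3 to Mcm7 counts in the control library (34.2% to 39.0%) and 33.5% in the knockout library (31.4% to 35.6%), and Mcm3 took 15.6% (13.8% to 17.5%) and 12.6% (11.2% to 14.2%). These intervals overlapped for both genes, but overlap of separate intervals does not show that the shares were alike.

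**Figure D4:**
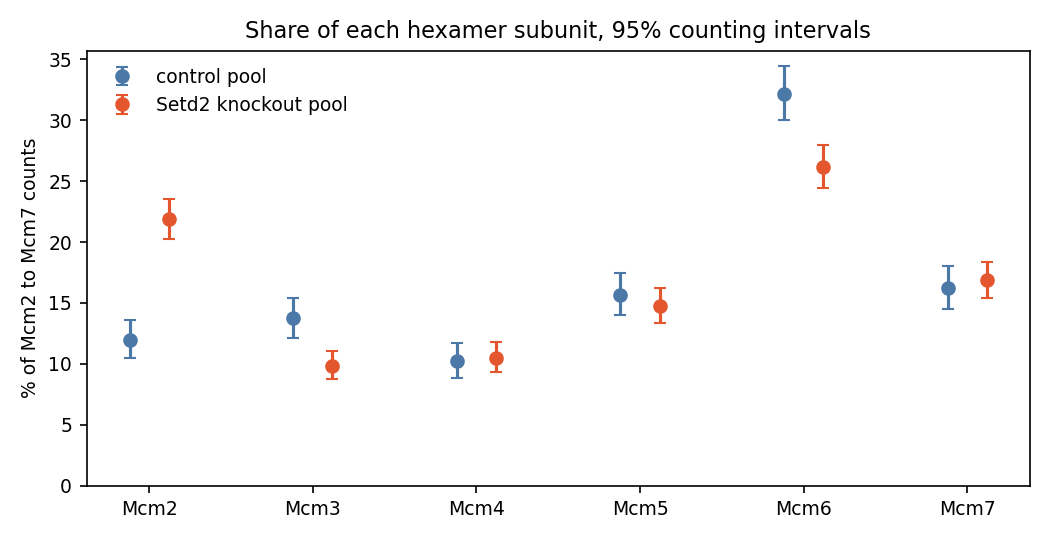
Share of each subunit in the summed Mcm2 to Mcm7 counts of the control library (blue) and the Setd2 knockout library (orange), in percent, with 95% counting intervals. Mcm2 moves from 11.98% to 21.9%, Mcm6 from 32.2% to 26.2% and Mcm3 from 13.7% to 9.86%, and the other subunits overlap.

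The summed level of the hexamer genes was 65.74 FPKM in control RNA and 94.77 in knockout RNA. Mcm2 made up 40.1% of the 29.03 FPKM between these sums. Mcm3 to Mcm7 without Mcm2 had 1551 and 1965 expected counts, a ratio of 1.29 (1.21 to 1.38). The most abundant subunit was 3.74-fold above the least abundant per length in control RNA and 2.96-fold above it in knockout RNA.

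Mcm2 was then set against each other subunit in turn, as the Mcm2 to subunit count ratio in the knockout library over that in the control library, a quantity that does not depend on how the libraries are scaled. It was 2.54 against Mcm3 (exact conditional 95% counting interval 1.99 to 3.25), 2.25 against Mcm6 (1.84 to 2.74) and 1.94 against Mcm5 (1.54 to 2.44). Against Mcm4 it was 1.78 (1.38 to 2.29), and against Mcm7 1.76 (1.40 to 2.20). Against Mcm3 to Mcm7 summed it was 2.06 (1.73 to 2.46). Among the 10 pairs without Mcm2, the ratio ranged from 0.691 for Mcm3 against Mcm7 (0.544 to 0.878) to 1.26 for Mcm4 against Mcm6 (1.01 to 1.59). Each pair was taken with the lower-numbered gene first, and on a ratio scale 0.691 lies further from 1 than 1.26. The interval excluded 1 for 5 of these 10 pairs and for all 5 pairs with Mcm2. At a level of 99.67%, which allows for the 15 pairs, it did so for 1 of the 10, Mcm3 against Mcm7 (0.485 to 0.985). All 5 pairs with Mcm2 still excluded 1 at that level. Mcm2 was picked out for its difference, so these intervals give the counting error in 2 libraries, are no test, and do not describe the genotypes.

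The genes that work with the ring were next compared as lists named for their roles in replication. Of 124 measured genes in these lists, 0 were past 2-fold in either direction, beside 2.78% higher and 1.28% lower among all measured genes. A log2 ratio above 0 was found for 100 of the 124, beside 62.5% of all measured genes, and the median was 0.20. With median ratio scaling 94 of the 124 were above 0, beside 54.4% of measured genes. With TMM factors it was 85, beside 49.7% of genes with a scaled CPM of 1 or more in at least 1 library. The single lists below are to be read beside the same shares, and their counting intervals above 1 beside 28% of measured genes. With the pseudocount of 1 FPKM no listed gene had a log2 ratio as high as that of Mcm2, but the count ratio of Xrcc2, a recombination factor, was 2.97 (1.71 to 5.77), from 16.4 and 47.9 counts. With pseudocounts of 0.1 and 0.01 FPKM the log2 ratio of Xrcc2 was 1.43 and 1.56, above the 1.40 and 1.41 of Mcm2. For 7 of them the counting interval reached above 2.26, the lower limit for Mcm2, namely Cdc7, Gins3, E2f7, Cdc20, Ccnb1, Tpx2 and Xrcc2, and for Cdc20, an activator of mitotic exit, it was 1.56 to 2.27. Xrcc2 passed 2-fold with both smaller pseudocounts, with TPM and with CPM with or without TMM factors. E2f7, a repressor of the E2F family, did so with both smaller pseudocounts and with CPM. Both genes were below 1 FPKM in control RNA.

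Licensing factors, which load the ring, had 10 of 11 genes measured, 7 of them above 0, and a median of 0.17. Orc2, an origin recognition subunit, was at 2.42 FPKM in control RNA and 3.93 in knockout RNA, and Orc6 at 6.1 and 8.93. Gmnn, the inhibitor of Cdt1 and the most abundant of the list, was at 23.58 and 23.08 FPKM. Orc4, another origin subunit, was at 6.48 and 6.07 (0.980, 0.793 to 1.22). Lrwd1, which associates with the origin recognition complex, was the lowest at 6.17 and 4.56 (count ratio 0.739, 0.554 to 0.982).

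Factors that activate the loaded ring were above 0 in 15 of 16 cases, with a median of 0.20. Cdc7, the kinase that phosphorylates the Mcm ring, was at 1.57 and 2.56 FPKM (count ratio 1.60, 1.07 to 2.42). Gins3, a subunit of the active helicase, was at 0.66 and 1.29 from 14 and 27 counts, and Gins1 of the same complex was the member below 0, at 3.45 and 2.66 from 33 and 21 counts. Cdk2, the S phase kinase, was at 9.13 and 10.6, and Topbp1, a scaffold for firing, at 7.33 and 7.76. For 3 of the 16, Cdc7, Cdc45 and Donson, the interval of the count ratio lay above 1.

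At the fork, 25 of 28 genes were above 0, with a median of 0.17 and 7 counting intervals above 1, but 19 were above 0 with median ratio scaling and 16 with TMM factors. Pcna, the sliding clamp, was at 77.99 FPKM in control RNA and 126.69 in knockout RNA (count ratio 1.62, 1.49 to 1.77), and Rfc5, a clamp loader subunit, at 9.29 and 15.43. Pold1, the catalytic subunit of polymerase delta, was at 6.7 and 5.76, and its small subunit Pold4 at 22.82 and 19.49. Among 9 nucleotide supply genes 8 were above 0, with Rrm2, a ribonucleotide reductase subunit, at 10.81 and 17.16 and Dctd, a deaminase, at 2.1 and 3.46. Tyms, which makes thymidylate, was the most abundant of them, at 23.42 and 24.72.

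Histone chaperones of the fork, with which the Mcm2 tail cooperates, had 6 of 10 genes above 0, with 5 counting intervals above 1 and 0 below 1. Rbbp7, a histone-binding protein and the most abundant, was at 34.57 and 49.86 FPKM (1.44, 1.31 to 1.59), and Tonsl, which reads new H4, at 8.61 and 11.8. The H3-H4 chaperones Asf1a, at 4.13 and 3.37, and Asf1b, at 6.98 and 5.3, were the lowest, and their intervals included 1. The median was 0.19.

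Regulators of E2F targets had 10 of 13 genes above 0 and a median of 0.20. E2f2, an activator, was at 5.11 and 7.69 FPKM (1.53, 1.27 to 1.85), E2f7 at 0.39 and 1 from 19 and 48 counts, and E2f4, the most abundant, at 25.5 and 33.46. Rb1, the retinoblastoma repressor of E2F, was at 17 and 13.33 (0.784, 0.700 to 0.878), and Tfdp2, a dimer partner, at 8.77 and 7.67. The activator E2f1 was outside the naming rule and was picked after its values were seen, at 2.24 and 3.36.

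Mitosis genes were the list with the highest median, 0.38, and all 20 had a log2 ratio above 0, also with median ratio scaling and TMM factors. For 17 of them the counting interval lay above 1. Cdc20 was at 11.22 and 21.06 FPKM (1.88, 1.56 to 2.27) and Ccnb1, the mitotic cyclin, at 7.38 and 13.69. Ube2c, a ubiquitin enzyme of mitotic exit and the most abundant, was at 41.11 and 51.54. Bub1, a checkpoint kinase, at 2.15 and 2.35, and Ccna2, the S phase cyclin, at 16.2 and 17.82, had the lowest ratios. Mki67, the common proliferation marker, was chosen after its values were seen, at 10.54 and 12.18 (1.16, 1.06 to 1.26).

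Genes of homologous recombination and mismatch repair, the setting of Mcm8 and Mcm9, had a median of 0.003 over 16 measured genes, 8 of them above 0, and the median turned to -0.03 with median ratio scaling and -0.09 with TMM factors. Xrcc2 was at 0.57 and 1.7 FPKM and Xrcc3, of the same family, at 5.46 and 8.6. BC030867, the older symbol of the Mcm8 and Mcm9 loader Hrob, was the lowest at 1.64 and 1.27 from 37 and 28 counts. Of the remaining genes named for the family, Mcmbp, which binds the ring, was at 13.04 and 15.21, Mcmdc2, a meiotic relative, at 4.99 and 6.17, and Mcm3ap at 5.97 and 4.98.

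**Figure D5:**
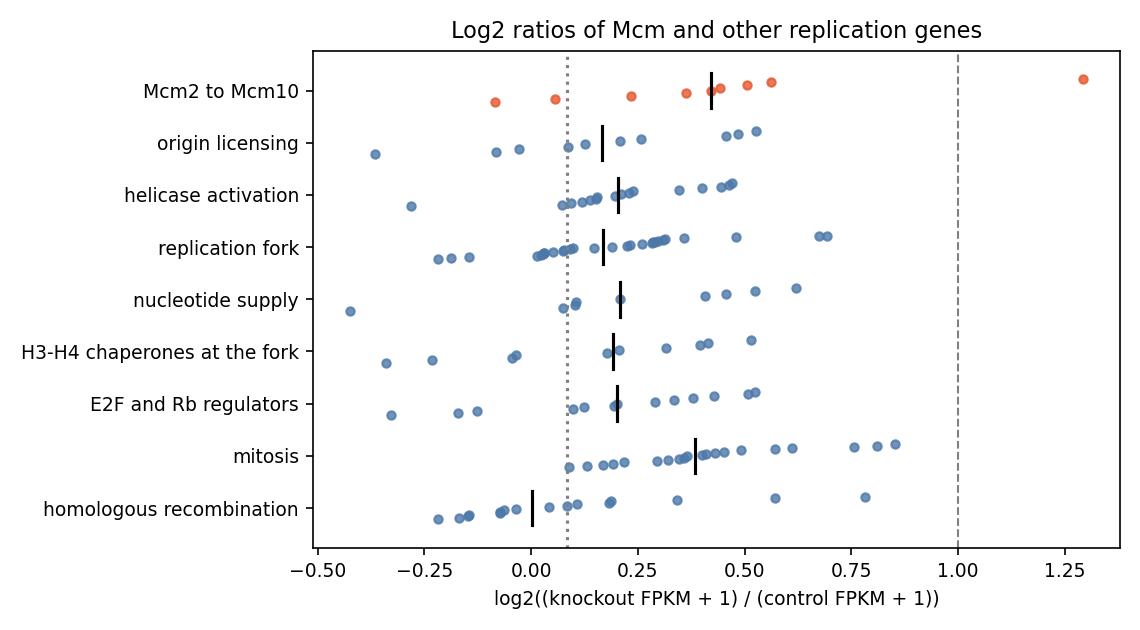
Log2 ratio of knockout over control, with a pseudocount of 1 FPKM, for the 9 Mcm genes (orange) and the measured genes of each replication list (blue), 1 point per gene; black bars are medians, the dotted line is the median of all measured genes (0.08) and the dashed line is 2-fold. Mcm2, at 1.29, is the single point past the dashed line.

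Genes next to the members on the chromosomes were examined because Mcm2 and its partners lie at separate loci. The 3 listed protein-coding genes on each side of Mcm2 were at log2 ratios from -0.03 to 0.35. Tpra1, the next gene beyond the Mcm2 start, was at 16.71 FPKM in control RNA and 18.49 in knockout RNA, and Podxl2, beyond its end, at 0.79 and 0.89. Further out, Abtb1 was at 8.86 and 8.67, Mgll, a lipase, at 5.91 and 5.88, Plxna1, a semaphorin receptor, at 3.13 and 3.57, and Chchd6 at 3.47 and 4.69. All 6 counting intervals included 1. Around all 9 members, 1 of 43 measured neighbours was past 2-fold, Hmox1, the heme oxygenase beside Mcm5, at 1.12 and 6.68 FPKM. Among all measured genes 2.78% were at least 2-fold higher and 1.28% at least 2-fold lower, so nothing is read from this count. Beside Mcm6, Lct, the lactase gene, was at 271.21 and 161.27, and Prkdc, which starts next to Mcm4, was at 1.13 and 1.15.

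The measured genes whose pair of levels was nearest to that of Mcm2, by Euclidean distance of log2(FPKM + 1) over the 2 libraries, were Ppic, a peptidyl-prolyl isomerase, at 7.04 and 18.07 FPKM (distance 0.045) and Slc2a1, a glucose transporter, at 7.55 and 18.17 (0.098). Fam129b was at 7.52 and 17.51 (0.122), Ngfrap1 at 6.99 and 15.86 (0.223) and Avpi1 at 6.04 and 15.94 (0.287). None of these 5 is in the replication lists. With 2 libraries, likeness means only a similar level and ratio.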

How the data were processed

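Intestinal RNA was sequenced from 1 control and 1 knockout pool. Per the labels' protocols, the authors mapped reads to mm10 with BWA/Bowtie and quantified genes with RSEM; versions are not given in the sources used here. Per the file headers, the deposited values are expected counts and FPKM per gene. Totals were 8809678 (control) and 8646358 (knockout) expected counts, and 3 counts equal 0.341 and 0.347 CPM.

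Log2 ratios used the deposited FPKM with a pseudocount of 1, over genes with FPKM of 1 or more in at least 1 library. Counting intervals (rounded counts; Python 3.11.15, scipy 1.17.1) cover counting error only. TMM factors came from edgeR 4.0.16, without a test. With 1 library per group no p-value was computed. Scripts were tested on simulated data.

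Members and lists were chosen with earlier results of these data known. Named genes are all members; in each replication list those past 2-fold, the 2 highest, the 2 lowest and the most abundant; the 3 neighbours on each side and the 5 nearest patterns, of which the text names part of the neighbours; and Setd2 and Apc as label checks. A few genes that this rule names are not reported here. Apc was at 10.51 and 10.73 FPKM. Of 20 recombination symbols listed, 19 were in the table, with Hrob under its older symbol. Alternatives were pseudocounts of 0.1 and 0.01, no filter or a mean FPKM of 5, TPM, median ratio scaling, and CPM with and without TMM factors. Gene positions and promoters came from RefSeq on GRCm38.p6.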

Additional observations from a re-analysis of the deposited data

How the results depend on the processing

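The log2 ratio of Mcm2 ranged from 1.23 (median ratio scaling) to 1.41 (pseudocount of 0.01 FPKM), and Mcm2 was the only member past 2-fold under every alternative tried. Its rank ranged from 83 of 8333 genes at a mean FPKM of 5 to 439 of 13253 with the pseudocount of 0.01. These ranks are over sets of different size. The Mcm2 share of hexamer counts in the knockout library, 21.9%, was 19.7% as a share of summed FPKM. The Mcm2 ratio relative to the other subunits, 2.06, was 2.54 against Mcm3 alone. With Mcm2 left out of the sum, a setting chosen after seeing the data, the Mcm6 share differed by -3.07 percentage points between the libraries in place of -6.02. The number of measured genes at least 2-fold higher, 369 of 13253, was 699 and 758 with pseudocounts of 0.1 and 0.01. It was 613 of 14587 with TPM, 544 of 14706 with CPM and 129 of 8333 at a mean FPKM of 5. Those lower, 170, were 282 and 301 with the smaller pseudocounts and 63 at a mean FPKM of 5. The share of measured genes above 0, 62.5%, was 49.7% with TMM factors. Of 309 recomputed values, 298 stayed within their counting or order-statistic interval, or within 1.5 times for counts. Part of these could hardly move, since the setting without a filter keeps the same log2 ratios and many list counts past 2-fold were 0. No paired analysis was possible because each group has 1 library, and no replicate could be left out. Depth limits Mcm8 and Mcm9 most.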
